A study of Mus musculus with 6 samples.

Results

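Amino acid transporters of the solute carrier (Slc) families carry amino acids and a few related molecules across the plasma membrane and the membranes of organelles. The Slc7 family holds cationic amino acid carriers, which work on their own, and exchangers, most of which reach the cell surface only when bound to a heavy chain of the Slc3 family. The Slc1 family takes up glutamate and small neutral amino acids, Slc6 takes up amino acids and neurotransmitters with sodium, Slc38 carries glutamine and other neutral amino acids, and Slc36 and Slc43 carry small and large neutral amino acids. In the early embryo these carriers supply protein synthesis, one-carbon metabolism and the synthesis of glutathione, and their genes are in part induced when amino acids are short.

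The genes were taken as all probes of the array whose annotated symbol belongs to Slc1, Slc3, Slc6, Slc7, Slc36, Slc38 or Slc43. The rule reads symbols and no measured values, but it was chosen with earlier results of these data known. It gave 116 of the 45281 probes and 55 of the 19057 named genes. The families are wider than the name amino acid transporters, because Slc6 also holds the monoamine carriers Slc6a2, Slc6a3 and Slc6a4 and the creatine carrier Slc6a8, and Slc43 holds the nucleobase carrier Slc43a3. The rule takes in Slc3a2 and no other heavy chain.

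Surface ectoderm (SE), the outer layer that forms the epidermis, was compared with neural ectoderm (NE), the layer that closes into the neural tube. Both came from wild-type CD-1 mouse embryos at E8.5 and were separated at the level of the forebrain with enzymes and needles. Illumina MouseWG-6 v2 bead arrays of 1 colour were used, 3 for SE and 3 for NE, and each of the 6 held 1 pool of tissue from many embryos. The study used more embryos for each SE pool than for each NE pool, so pool size cannot be told apart from tissue. The study calls the pools independent biological replicates, so the p-values below measure the spread between 3 pools per tissue.

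Signals are given as background-corrected, quantile-normalized log2 values. A probe was called detected on an array at a detection p under 0.05, and it was tested where at least 3 arrays detected it. Between 18916 and 19068 probes were detected on the SE arrays and between 19174 and 19402 on the NE arrays. The transporter probes detected numbered 39, 43 and 44 on SE arrays 1 to 3 and 43, 42 and 38 on NE arrays 1 to 3. The lowest detected signal was between 4.82 and 4.83 on SE arrays and between 4.79 and 4.81 on NE arrays, on the log2 scale. All 11 tested SE markers were higher in SE and all 7 tested NE markers were lower in SE (limma, adjusted p under 0.05). The study had reported the SE markers Grhl2 and Foxi2 as higher in SE on these same arrays, so their direction is no independent support. Hesx1, Lhx2, Lhx5 and Rax, which mark NE, were detected on no SE array. They met the filter on detection only through the NE arrays, so their direction is no independent support.

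Markers of other tissues also differed. All 8 tested markers of cephalic mesenchyme were higher in SE, with summed linear signals of 2602 to 3373 in SE and 422 to 591 in NE, although the labels state that this mesenchyme was left out. Alx1, Alx4 and Dcn, which mark this mesenchyme, were detected on no NE array. They met the filter on detection only through the SE arrays, so their direction is no independent support. All 5 tested blood markers were higher in SE (4265 to 7925 in SE and 788 to 2271 in NE), as were 2 of 4 endothelial markers (1773 to 1957 in SE and 1281 to 1413 in NE). Of 6 tested neural crest markers 5 were higher in SE (6647 to 7445 in SE and 3631 to 4476 in NE), and the sixth, Sox9, was lower in SE (difference -0.72, 1.64-fold higher in NE, limma, adjusted p = 0.000471). Of 4 tested endoderm markers 1 was higher and 2 were lower in SE (183 to 197 in SE and 250.1 to 309.6 in NE). Foxa1 and Foxa2 were detected on no SE array and met the filter only through the NE arrays. The signals of these markers of other tissues move with the same groups as every transporter difference below. Their part in those differences was not tested. Of 6 tested immediate early genes, 2 were higher in SE, 2 were lower in SE and 2 did not pass (limma, adjusted p under 0.05). Over all genes tested, 18.7% were higher and 21.6% lower in SE. Atf3 and Junb were higher in SE, and Jun and Dusp1 were lower in SE. Atf3 was detected on no NE array and met the filter only through the SE arrays. The part of these genes in the transporter differences was not tested. In pooled tissue, fewer cells that express a gene and less RNA of it per cell cannot be told apart.

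Of the 55 transporter genes, 30 were tested. Another 7 were detected on only 1 or 2 arrays, and 18 were detected on no array. A gene with several tested probes is represented by its brightest one. At an adjusted p under 0.05 (limma, over all 19590 tested probes), 9 of the 30 genes differed between the tissues, 5 higher in SE and 4 lower in SE. With the arrays centred on their medians in place of quantile normalization the split was 5 and 6, and without SE array 3 it was 3 and 3. One of the 5, Slc7a8, entered the test only through its SE arrays. The probes standing for Slc7a7 and Slc7a11 were detected on 3 SE arrays and 1 NE array, and that for Slc1a2 on 3 NE arrays and 1 SE array. Without the tissue in which it is brighter, none of these probes would have met the filter, so their calls are no independent support. The 9 genes are 30.0% of the transporter genes, beside 40.3% of all 10603 genes tested. By direction, 16.7% were higher in SE, beside 18.7% of all genes, and 13.3% were lower in SE, beside 21.6% of all genes. The share of called genes was thus not above the background of the comparison. Whether it differs from that background was not tested. The median log2 difference of SE minus NE was 0.095 over the 30 genes and -0.021 over all genes tested. The SE and NE arrays did not overlap for 12 of the 30 genes, beside 55.1% of all genes. In 7 of these every SE array was above every NE array, beside 25.0% of all genes, and in 5 every SE array was below, beside 30.1% of all genes.

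**Figure D1:**
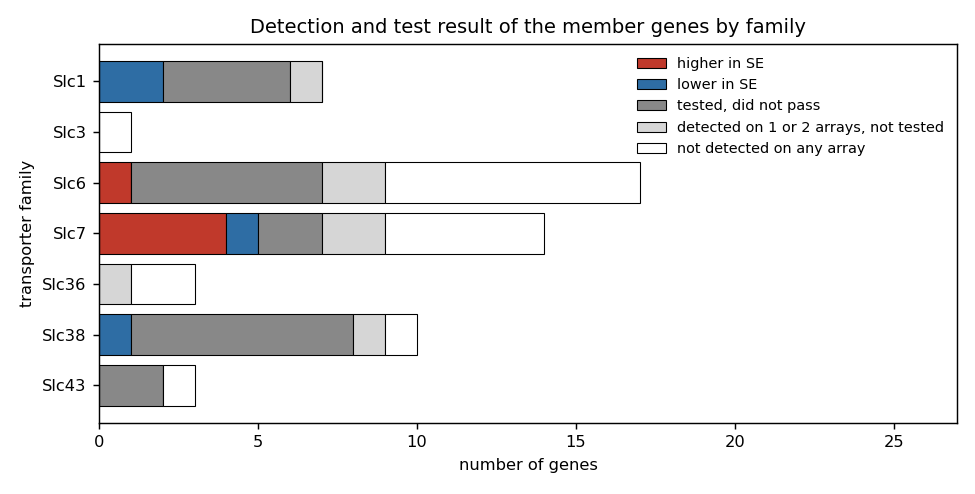
Number of transporter genes (x axis) in each family (y axis), split by whether they were higher in SE, lower in SE, tested without passing, detected on 1 or 2 arrays, or not detected. Slc7 held 4 of the 5 genes that were higher in SE, and Slc38 had 7 tested genes that did not pass.

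Because several of these genes are known targets of the amino acid response, in which the factor ATF4 binds composite sites with C/EBP proteins, and of the antioxidant response through NRF2, the letters of both sites were searched in promoter windows. RefSeq windows of GRCm38.p6, 250 bases before to 50 after a start site, were found for 7 of the 9 called genes, Slc6a6 and Slc7a3 having none. The windows shown, 1 for each gene, are among those in which the amino acid response core TGATGNAA was found on either strand, printed 5′ to 3′ along the gene with each match in capitals. They lie at chr3:50443564-50443863 (minus strand) for Slc7a11, chr14:54417895-54418194 (minus strand) for Slc7a7 and chr11:20332664-20332963 (minus strand) for Slc1a4, each reaching into the first bases of the transcript.
Slc7a11: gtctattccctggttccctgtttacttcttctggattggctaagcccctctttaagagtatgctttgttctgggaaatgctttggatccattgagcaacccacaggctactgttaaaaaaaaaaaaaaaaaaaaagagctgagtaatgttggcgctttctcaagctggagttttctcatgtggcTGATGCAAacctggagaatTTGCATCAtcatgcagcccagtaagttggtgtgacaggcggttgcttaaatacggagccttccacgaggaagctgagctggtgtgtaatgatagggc
Slc7a7: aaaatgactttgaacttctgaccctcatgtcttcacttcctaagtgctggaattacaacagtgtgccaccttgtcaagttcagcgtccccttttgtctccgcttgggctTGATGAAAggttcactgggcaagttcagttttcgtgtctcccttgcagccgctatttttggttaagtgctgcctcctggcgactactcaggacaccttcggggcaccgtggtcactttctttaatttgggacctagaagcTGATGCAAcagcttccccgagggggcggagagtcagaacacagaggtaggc
Slc1a4: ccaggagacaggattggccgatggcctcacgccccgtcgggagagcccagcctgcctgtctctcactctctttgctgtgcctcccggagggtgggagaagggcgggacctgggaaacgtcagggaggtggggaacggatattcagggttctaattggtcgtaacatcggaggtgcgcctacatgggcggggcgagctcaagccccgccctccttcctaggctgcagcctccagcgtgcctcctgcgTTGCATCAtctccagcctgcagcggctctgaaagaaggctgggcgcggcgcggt

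In the Slc7a11 window the core began at position -66 from the start site and again, on the opposite strand, at position -47. The Slc7a7 window held it at positions -141 and -1, and a further Slc7a7 window that overlaps this one held the second of these matches. The Slc1a4 window held it on the opposite strand at position -4. In all, 4 of the 12 windows of called genes (33.3%) and 5 of the 60 windows of all transporter genes (8.33%) held TGATGNAA, beside 3.91% of all 32544 promoter windows of this length. By gene, 3 of the 7 called genes and 4 of the 39 transporter genes with a window held it. The share by gene over all genes was not computed, so these counts have no background beside them. Windows of 1 gene can overlap, so they are not separate cases, and the Slc7a7 windows with a match share a site. The shares of windows therefore show no enrichment by gene. The antioxidant response core TGACNNNGC, searched on both strands, was in 2 of the 12 windows of called genes (16.7%), both of them overlapping windows of Slc7a6, in 10 of the 60 windows of all transporter genes (16.7%) and in 12.4% of all windows. These matches are a description of letters and were not tested for binding. Slc7a11 and Slc7a7 were higher in SE and Slc1a4 was lower in SE, so the genes that share the core differed in both directions.

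The Slc7 family held most of the differences, with 4 genes higher in SE, 1 lower in SE and 2 that did not pass. For this and the other families, the background is 18.7% of all genes tested higher in SE and 21.6% lower in SE. Whether a family differs from it was not tested. Slc7a11 encodes the light chain of the cystine and glutamate exchanger, which supplies cystine for glutathione. Its brightest probe had log2 signals of 6.53, 6.89 and 6.41 on the SE arrays, against 4.59, 4.96 and 4.69 on the NE arrays. Every SE array was above every NE array, and only 1 NE array detected the probe. The means were 6.61 ± 0.25 in SE and 4.74 ± 0.19 in NE (SD, n = 3 each), a difference of 1.87 ± 0.15 (standard error) or 3.65-fold (limma, adjusted p = 5.52e-05). Since most NE arrays were below detection, this fold was taken partly against background. The size of the difference depended on the treatment of background, and it was 0.90 without background correction, 0.94 in the deposited scaled values and 1.12 with an offset of 50, each under a fold of 3, with the call kept. On the background-corrected scale it was the only transporter gene past a fold of 3. A second probe of Slc7a11 had 5.28, 4.92 and 5.29 in SE, against 4.76, 4.89 and 4.88 in NE, and did not pass (difference 0.32, adjusted p = 0.0621), although its tissues did not overlap either. The other 3 probes of the gene were detected on no array.

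Slc7a7 and Slc7a6 encode the closely related y+L exchangers, which release cationic amino acids from the cell in return for neutral ones and sodium. They differed in opposite directions. Slc7a7 had log2 signals of 5.96, 5.64 and 5.69 in SE, against 5.03, 4.78 and 4.37 in NE, with means of 5.76 ± 0.17 in SE and 4.72 ± 0.33 in NE. The tissues did not overlap, all 3 SE arrays and 1 NE array detected the probe, and the difference was 1.04 ± 0.17 (2.06-fold, limma, adjusted p = 0.0025). Without background correction the difference was 0.45, and in the deposited scaled values 0.50, both with the call kept. A second Slc7a7 probe was also higher in SE, with 5.90, 5.67 and 5.33 in SE, against 4.94, 4.41 and 5.06 in NE (difference 0.83, adjusted p = 0.0135). The third probe had 5.19, 5.20 and 5.17 in SE, against 5.35, 5.11 and 5.24 in NE, and did not pass (difference -0.042, adjusted p = 0.731). With any SE array left out this last probe became the brightest of the 3, and the gene then lost its call (difference -0.034 to -0.049, adjusted p 0.746 to 0.828), while the first probe still passed (difference 0.94 to 1.11, adjusted p 0.00879 to 0.0110).

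Slc7a6 had log2 signals of 7.47, 7.85 and 7.55 in SE, against 8.51, 8.32 and 8.35 in NE. All arrays detected it, and the lowest NE array lay above the highest SE array. With means of 7.62 ± 0.20 in SE and 8.39 ± 0.10 in NE, the difference was -0.77 ± 0.12, a 1.71-fold higher signal in NE (limma, adjusted p = 0.00159). The 95% confidence interval of the log2 difference was -1.04 to -0.50 for Slc7a6 and 0.64 to 1.44 for Slc7a7.

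Slc7a8, an exchanger of neutral amino acids that also pairs with a heavy chain, had log2 signals of 5.45, 5.34 and 5.36 in SE, against 4.61, 4.76 and 4.68 in NE. It was detected on all 3 SE arrays and on no NE array. The measured means were 5.39 ± 0.058 in SE and 4.68 ± 0.072 in NE, a difference of 0.70 ± 0.078 (limma, adjusted p = 0.000317), and because NE was below detection the fold is given as a bound, at least 1.503-fold higher in SE on this background-corrected scale. For such a bound, the SE mean was set against the NE mean after each NE value was raised, where it was lower, to the lowest detected signal of its array. The difference was smaller on the other scales, at 0.28 without background correction, 0.34 with an offset of 50 and 0.32 in the deposited scaled values. Slc7a8 met the filter on detection only through the tissue in which it is brighter, so its place among the called genes is no independent support. With no filter on detection its adjusted p was 0.000447. Without any 1 of the SE arrays, Slc7a8 was detected on only 2 arrays and was not tested.

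Slc7a3, a carrier of cationic amino acids that needs no heavy chain, was well above detection in both tissues. Its log2 signals were 9.18, 9.45 and 9.36 in SE, against 8.77, 8.88 and 8.78 in NE. The tissues did not overlap, and the means of 9.33 ± 0.14 in SE and 8.81 ± 0.058 in NE differed by 0.52 ± 0.092 (1.43-fold, limma, adjusted p = 0.00351). The related carriers Slc7a1 and Slc7a2 could not be compared, Slc7a1 being detected on no array and Slc7a2 on 1 NE array.

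The remaining Slc7 genes gave little signal or no call. Slc7a4 had 6.29, 5.59 and 5.96 in SE, against 5.49, 5.64 and 5.55 in NE, and did not pass (difference 0.39, 95% confidence interval 0.01 to 0.77, limma, adjusted p = 0.103). Slc7a13 differed by 0.011 (adjusted p = 0.961). Slc7a9, Slc7a10, Slc7a12 and Slc7a15 were detected on no array, and Slc7a14 on 1 SE array. Slc3a2, which encodes the heavy chain that partners Slc7a6, Slc7a7, Slc7a8 and Slc7a11, has a single probe on the array, with log2 signals of 4.57, 4.35 and 4.37 in SE, against 4.50, 4.68 and 4.31 in NE. This probe was detected on no array and gives no comparison.

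**Figure D2:**
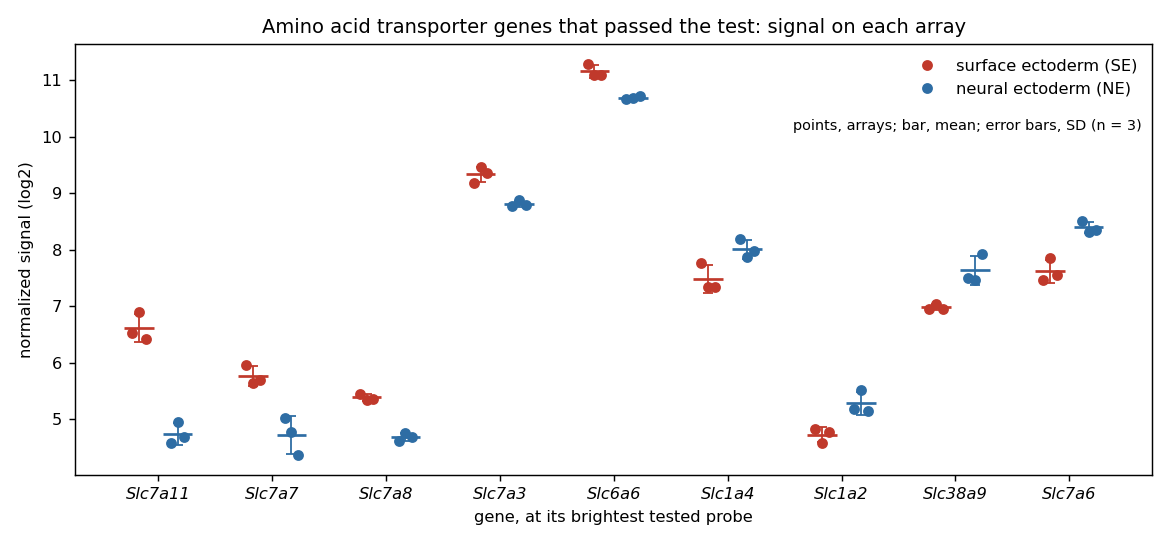
Normalized log2 signal (y axis) of the 9 transporter genes that passed the test (x axis), at the brightest tested probe of each, with SE left of NE. Points are the arrays, bars the means and error bars the SD (n = 3 per tissue). SE lies above NE for the 5 genes from Slc7a11 to Slc6a6 and below it for Slc1a4, Slc1a2, Slc38a9 and Slc7a6.

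In the Slc6 family, 1 gene was higher in SE, none was lower in SE and 6 did not pass (limma; at an unadjusted p under 0.05, the counts were 1 higher and 0 lower in SE). Slc6a6 encodes the carrier of taurine, an amino sulfonic acid that cells use as an osmolyte. It had log2 signals of 11.29, 11.08 and 11.09 in SE, against 10.66, 10.67 and 10.72 in NE. Each SE array was above each NE array, the means being 11.16 ± 0.12 in SE and 10.68 ± 0.030 in NE, and the difference was 0.47 ± 0.084 (1.39-fold, limma, adjusted p = 0.00368).

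The creatine carrier Slc6a8 differed by 0.11 (adjusted p = 0.361) and the glycine carrier Slc6a9 by 0.30 (adjusted p = 0.175). The difference was -0.24 for Slc6a15, a carrier of branched-chain amino acids and proline (adjusted p = 0.180), -0.19 for the vesicular neutral amino acid carrier Slc6a17 (adjusted p = 0.213) and -0.033 for the epithelial neutral amino acid carrier Slc6a19 (adjusted p = 0.850). The serotonin carrier Slc6a4 had 4.90, 5.11 and 4.87 in SE, against 4.70, 4.86 and 4.66 in NE, close to the limit of detection. Its tissues did not overlap, yet it did not pass (difference 0.22, adjusted p = 0.116). Of the others, Slc6a2 was detected on 1 SE and 1 NE array, Slc6a7 on 1 NE array, and Slc6a3, Slc6a5, Slc6a11, Slc6a12, Slc6a13, Slc6a14, Slc6a18 and Slc6a21 on none.

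In the Slc1 family none of the 6 tested genes was higher in SE and 2 were lower in SE (limma; at an unadjusted p under 0.05, the counts were 1 higher and 2 lower in SE). Slc1a4 encodes a carrier of alanine, serine and cysteine. Its log2 signals were 7.77, 7.35 and 7.34 in SE, against 8.19, 7.86 and 7.97 in NE, and the tissues did not overlap. The means were 7.49 ± 0.25 in SE and 8.01 ± 0.17 in NE, a difference of -0.52 ± 0.14, or 1.44-fold higher in NE (limma, adjusted p = 0.023). This call was lost when SE array 2 or 3 or NE array 1 or 3 was left out, with adjusted p between 0.0503 and 0.0827.

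Slc1a2 encodes a glutamate carrier best known from astrocytes. Its brightest probe had log2 signals of 4.83, 4.57 and 4.78 in SE, against 5.18, 5.51 and 5.15 in NE. All 3 NE arrays and 1 SE array detected it, the tissues did not overlap, and the means of 4.73 ± 0.14 in SE and 5.28 ± 0.20 in NE differed by -0.55 ± 0.12 (1.47-fold higher in NE, limma, adjusted p = 0.0096). Since most SE arrays were below detection, this fold was taken partly against background. The difference was -0.22 without background correction and -0.27 with an offset of 50, with the call kept. It was -0.17 in the deposited scaled values, where the call was lost. A second probe had 4.62, 4.46 and 4.71 in SE, against 5.08, 4.89 and 4.89 in NE, with no SE array above detection, which gives at least 1.09-fold more in NE (adjusted p = 0.0227).

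The glial glutamate carrier Slc1a3 had 8.23, 7.80 and 7.87 in SE, against 8.03, 8.42 and 7.87 in NE, with overlapping tissues, and did not pass (difference -0.14, 95% confidence interval -0.53 to 0.25, adjusted p = 0.553). The glutamine carrier Slc1a5 differed by 0.091 (adjusted p = 0.746), and the glutamate carriers Slc1a6 and Slc1a7 by 0.48 (adjusted p = 0.197) and 0.38 (adjusted p = 0.0672), none of which passed. Slc1a1, which carries glutamate and cysteine, was detected on 2 NE arrays and no SE array and was not tested. Its signals were 4.66, 4.57 and 4.63 in SE, against 5.18, 4.82 and 4.72 in NE.

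**Figure D3:**
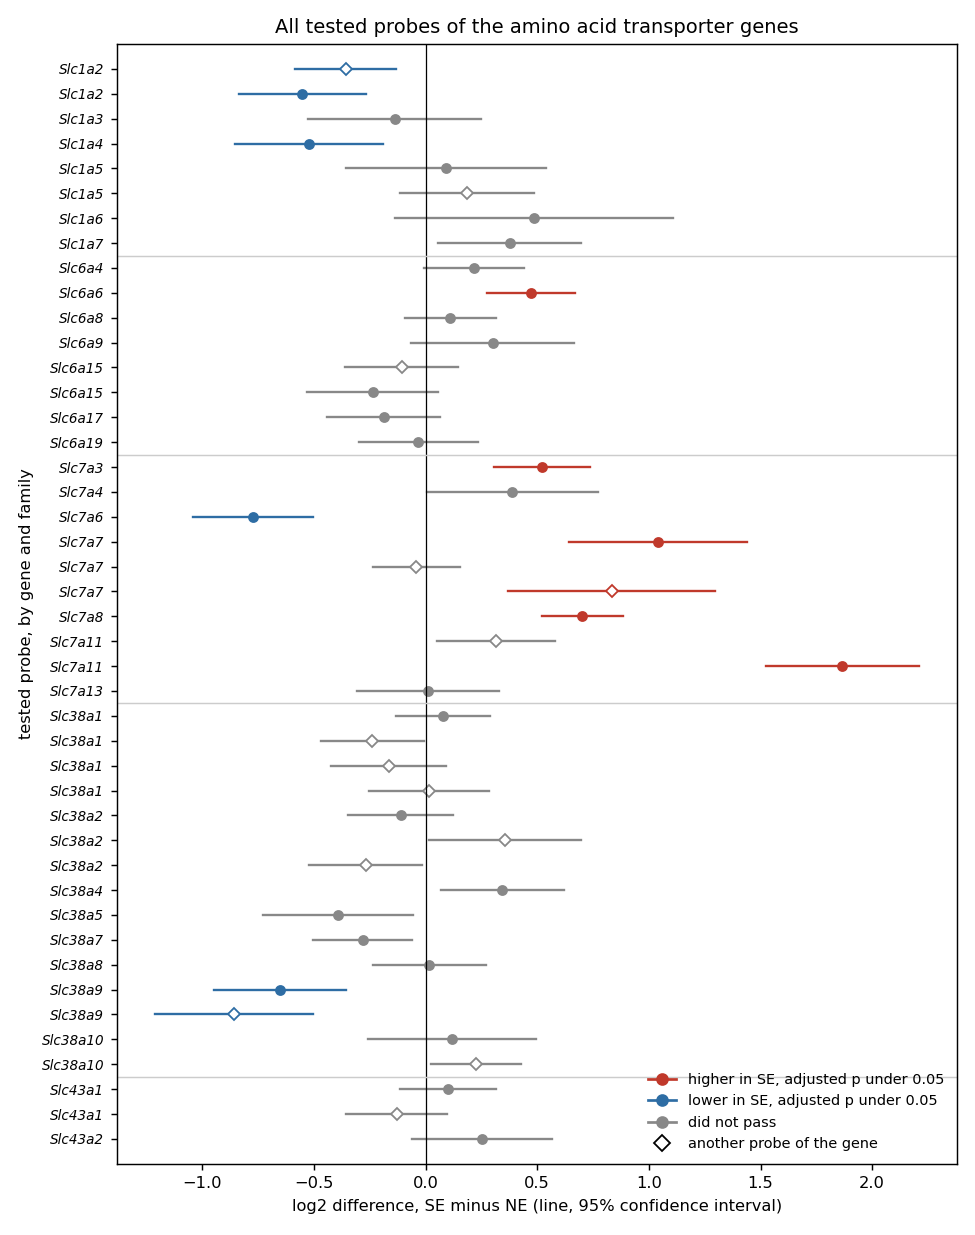
Log2 difference of SE minus NE (x axis) for each of the 44 tested probes (y axis), grouped by family, with its 95% confidence interval. Filled circles are the probes that represent their gene and open diamonds its other probes. Both Slc38a9 probes lie left of 0, whereas the 3 Slc7a7 probes lie on both sides of it.

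Most of the Slc38 family, which takes up or releases glutamine, did not pass, with no gene higher in SE, 1 lower in SE and 7 without a call (limma; at an unadjusted p under 0.05, the counts were 1 higher and 3 lower in SE). Slc38a9 encodes a lysosomal carrier that senses arginine for mTORC1. It had log2 signals of 6.96, 7.05 and 6.95 in SE, against 7.51, 7.47 and 7.93 in NE, and its tissues did not overlap. The means of 6.98 ± 0.056 in SE and 7.64 ± 0.25 in NE differed by -0.65 ± 0.13 (1.57-fold higher in NE, limma, adjusted p = 0.00563). A second probe differed in the same direction, with 4.53, 4.69 and 4.80 in SE, against 5.55, 5.23 and 5.82 in NE. All NE arrays detected it and none of SE, which gives at least 1.63-fold more in NE (adjusted p = 0.00352).

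Slc38a2, a glutamine carrier that is induced when amino acids are short, had log2 signals of 10.74, 10.59 and 10.68 in SE, against 10.62, 10.78 and 10.95 in NE. The tissues overlapped and the difference was -0.11, with a 95% confidence interval of -0.35 to 0.12 (limma, adjusted p = 0.429). Its other probes differed by -0.27 (adjusted p = 0.0899) and 0.35 (adjusted p = 0.0949). Slc38a1, the main related carrier, had 4 tested probes with differences of 0.078, -0.24, -0.17 and 0.014, and none passed (adjusted p 0.0957 to 0.937).

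Just outside the threshold were 3 further Slc38 genes. Slc38a7, a lysosomal glutamine carrier, had 6.40, 6.25 and 6.49 in SE, against 6.54, 6.71 and 6.74 in NE (difference -0.28, limma, adjusted p = 0.0511). Slc38a4, a carrier of neutral and cationic amino acids, had 5.62, 5.68 and 5.99 in SE, against 5.48, 5.51 and 5.27 in NE (difference 0.34, adjusted p = 0.0552). Slc38a5, which carries glutamine, histidine and serine, had 6.00, 5.70 and 5.47 in SE, against 6.10, 6.28 and 5.97 in NE (difference -0.39, adjusted p = 0.0688). The tissues did not overlap for Slc38a7 and Slc38a4, and did for Slc38a5. Slc38a8 differed by 0.016 (adjusted p = 0.924) and Slc38a10 by 0.12 (adjusted p = 0.606). Slc38a3 was detected on 2 NE arrays only, with 4.47, 4.76 and 4.52 in SE, against 4.85, 4.59 and 4.97 in NE, and Slc38a11 was detected on no array.

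In the Slc43 family, neither of the 2 tested genes passed, and at an unadjusted p under 0.05 the counts were 0 higher and 0 lower in SE (limma). The large neutral amino acid carriers Slc43a1 and Slc43a2 differed by 0.099 (limma, adjusted p = 0.441) and 0.25 (adjusted p = 0.185), and Slc43a3 was detected on no array. No gene of the proton-coupled Slc36 family was tested, Slc36a3 being detected on 1 SE array and Slc36a1 and Slc36a2 on none.

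Over all 44 tested transporter probes, 12 passed (27.3%, beside 37.3% of all tested probes), 6 of them higher in SE, beside 17.1% of all tested probes, and 6 lower in SE, beside 20.2%. The arrays of SE and NE did not overlap for 18 of the 44 probes, beside 51.0% of all tested probes, with SE above NE for 10, beside 23.1%, and below it for 8, beside 27.9%. The second probes of Slc1a2 and Slc38a9 entered the test only through their NE arrays and are no separate support for the first. Slc7a7 and Slc7a11 each had a probe that passed and a probe that did not. Which transcripts each probe matches was not analysed here.

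Other genes of amino acid use were described from lists of named genes, each gene represented by its brightest probe. The lists were chosen with earlier results of these data known. Over all genes tested, 18.7% were higher in SE and 21.6% lower in SE, with a median difference of -0.021, the background for the counts below. Among 17 tested genes of the amino acid response and serine synthesis, 3 were higher in SE, 4 were lower in SE and 10 did not pass, with a median difference of 0.051. Phgdh, the first enzyme of serine synthesis, averaged 10.35 ± 0.027 in SE and 8.89 ± 0.073 in NE (SD, n = 3 each; 2.75-fold higher in SE, limma, adjusted p = 5.25e-06). Cebpb, a C/EBP factor that pairs with ATF4, averaged 7.45 ± 0.11 in SE and 6.30 ± 0.036 in NE (2.22-fold, adjusted p = 3.47e-05), and Trib3, a pseudokinase induced by ATF4, was 1.81-fold higher in SE (adjusted p = 0.000552). Ddit4, a stress-induced inhibitor of mTORC1, was lower in SE, at 8.66 ± 0.18 in SE and 10.18 ± 0.21 in NE (2.87-fold higher in NE, adjusted p = 9.49e-05). The members of this list thus differed in both directions, as the transporters did.

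**Figure D4:**
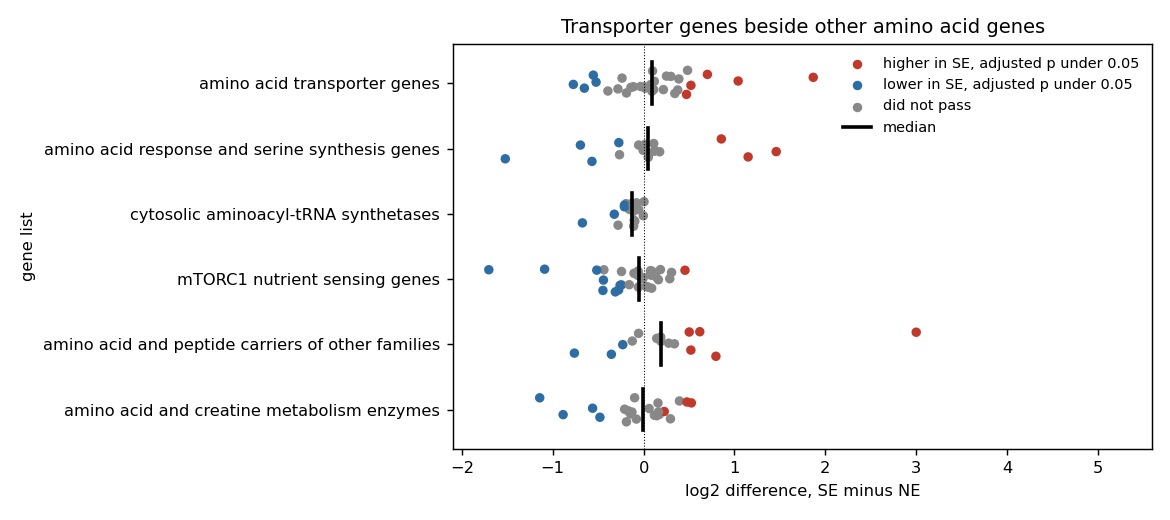
Log2 difference of SE minus NE (x axis) of each tested gene in the transporter families and in 5 other gene lists (y axis). Red points passed as higher in SE, blue points as lower in SE, grey points did not pass, and black bars are medians. The medians lie between -0.122 and 0.191, while single genes reach from -1.70 to 3.00.

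Of the 18 cytosolic aminoacyl-tRNA synthetases, which load amino acids onto tRNA, none was higher in SE, 4 were lower in SE and 14 did not pass (limma; at an unadjusted p under 0.05, 0 were higher and 6 lower in SE). Their median difference was -0.122. Cars averaged 6.80 ± 0.17 in SE and 7.47 ± 0.27 in NE (1.59-fold higher in NE, adjusted p = 0.0103), and Eprs, Vars and Sars were 1.25-fold, 1.16-fold and 1.16-fold higher in NE (adjusted p = 0.0133, 0.0474 and 0.048). The count of 4 became 2 without any 1 of the SE arrays, NE array 2 or NE array 3.

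Among 32 tested genes of mTORC1 nutrient sensing, the pathway in which Slc38a9 acts, 1 was higher in SE, 9 were lower in SE and 22 did not pass, with a median of -0.052. In the deposited scaled values the split was 3 higher and 10 lower in SE. The Rag GTPase genes Rragb and Rragd, which bring mTORC1 to the lysosome, were lower in SE. Rragb averaged 9.33 ± 0.025 in SE and 11.03 ± 0.044 in NE (3.26-fold higher in NE, limma, adjusted p = 1.93e-06), and Rragd averaged 7.80 ± 0.19 in SE and 8.89 ± 0.15 in NE (2.13-fold higher in NE, adjusted p = 0.000322). Fnip1, which acts with folliculin on the Rag proteins, was 1.43-fold higher in NE (adjusted p = 0.00665), and Tbc1d7, a subunit of the TSC complex, which restrains mTORC1, was 1.37-fold higher in SE (adjusted p = 0.00246). The count of 9 lower in SE fell to 5 without SE array 2 or NE array 2 and to 4 without SE array 3 or NE array 3, and the count of 1 higher in SE became 2 without SE array 2 or NE array 2.

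Amino acid and peptide carriers outside these families were also tested. Of 15 such genes 5 were higher in SE, 3 were lower in SE and 7 did not pass, with a median of 0.191. The proton-coupled peptide carrier Slc15a2 averaged 7.81 ± 0.096 in SE and 4.81 ± 0.63 in NE (difference 3.00, limma, adjusted p = 0.000117), and 1 NE array detected it. The study showed this gene among its differing genes on these same arrays, so its inclusion is not independent. Slc66a1, which exports cationic amino acids from lysosomes, was 1.74-fold higher in SE (adjusted p = 0.000414) and Mfsd12, a lysosomal cysteine importer, 1.54-fold (adjusted p = 0.0229), this gene being detected on 1 NE array, so its fold is partly against background. Slc17a6, a vesicular glutamate carrier of neurons, was lower in SE, with 4.60 ± 0.29 in SE and 5.36 ± 0.14 in NE (1.70-fold higher in NE, adjusted p = 0.00591), and 1 SE array detected it. The number higher in SE became 3 without SE array 1 or 2 or NE array 1 or 2, and the number lower in SE became 1 without any 1 of the SE arrays, NE array 2 or NE array 3.

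Among 22 tested enzymes of amino acid and creatine metabolism, 3 were higher in SE, 4 were lower in SE and 15 did not pass, with a median of -0.0093. Bcat1, which transfers amino groups from branched-chain amino acids, averaged 10.48 ± 0.14 in SE and 11.62 ± 0.13 in NE (2.21-fold higher in NE, limma, adjusted p = 0.000109). Gldc, a subunit of the glycine cleavage system, averaged 11.90 ± 0.21 in SE and 12.78 ± 0.089 in NE (1.85-fold higher in NE, adjusted p = 0.000828). Cbs, which starts the conversion of homocysteine to cysteine, was seen on every NE array but on no SE array, a bound of at least 1.18-fold higher in NE (adjusted p = 0.0114). It met the filter on detection only through the NE arrays, so its call is no independent support. Ckmt1, a mitochondrial creatine kinase, was 1.44-fold higher in SE (adjusted p = 0.00684). The number higher in SE was 1 without SE array 1 and without SE array 3.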

How the data were processed

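RNA from pooled SE and NE was measured on 6 arrays, grouped by their labels. The authors used BeadStudio (version not given in the sources used here) to export a linear signal intensity per probe, deposited without normalization. The detection p-value deposited beside each signal was computed by the authors' software against negative control probes. A second deposited table of scaled intensity values equals these signals times 1 constant per array (1.005, 1.005 and 1.066 for SE and 0.9932, 0.9712 and 0.9659 for NE arrays 1 to 3). The constants bring every array to a mean of 419.99, and no background subtraction or further centring was found. Its medians were 62.99, 64.54 and 69.2 for SE and 61.68, 61.8 and 62.8 for NE.

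Signals were background-corrected and quantile normalized by neqc (offset 16) in limma 3.58.1 under R 4.3.3. The filter kept probes detected (detection p under 0.05) on 3 or more of the 6 arrays. The lmFit and eBayes functions then compared SE with NE, and the Benjamini-Hochberg adjustment ran over all 19590 kept probes. Every adjusted p is limma's, and a call needed one under 0.05. The code was tested on simulated data. The number of arrays limits the precision.

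Gene names started from the platform annotation, in which 34885 probes had 1 symbol, 18 several and 10378 none. For 34807 probes the symbol was then taken from RefSeq through the Entrez gene number, which renamed no transporter probe. Every transporter gene was named, with the arrays' values for the called genes, and up to 4 called genes of each other list with the largest log2 difference. In the study's heat map NE arrays 2 and 3 appear swapped against their labels, so their replicate numbers are uncertain, while comparisons of SE with NE are unaffected. The genes and lists were chosen with earlier results of these data known. Figures were made with matplotlib 3.10.9 (Python 3.11.15).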

Additional observations from a re-analysis of the deposited data

How the results depend on the processing

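Of the called transporter genes, Slc6a6, Slc7a3, Slc7a6 and Slc38a9 kept their call and direction under all 14 alternatives, and Slc7a11, Slc7a7 and Slc7a8, at the same probe, under the 13, 13 and 10 in which it was tested. Slc1a2 lost its call in the deposited scaled values (difference -0.17, adjusted p = 0.0753) and without variance moderation (adjusted p = 0.0555), and Slc1a4 under 6 alternatives (adjusted p up to 0.0983). With no array left out, calls of transporters higher in SE (5) became 3 over probes detected on all 6 arrays and 1 at a fold above 3 with an unadjusted p under 0.05, and calls lower in SE (4) became 2 without moderation and 0 at that fold. Over probes detected on all 6 arrays, 2 of the 5 and 3 of the 4 stayed. Slc1a2, Slc7a7, Slc7a8 and Slc7a11 were lost there, and Slc38a4 and Slc38a7 were gained. With single arrays left out, 3 to 6 genes were called higher and 3 to 5 lower in SE. Calls were gained under at least 1 alternative by Slc1a7, Slc6a9, Slc6a15, Slc7a4, Slc38a4, Slc38a5 and Slc38a7.

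For the other lists, the replicate block gave 2 aminoacyl-tRNA synthetases and 5 mTORC1 genes lower in SE, against 4 and 9 without it, and called Slc38a5 (adjusted p = 0.04996). The study compared SE with NE within each replicate. Between arrays of the same number, deviations from the tissue means had correlations of -0.0371, -0.0313 and -0.0198. With NE arrays 2 and 3 exchanged, the values for SE arrays 2 and 3 were -0.00842 and 0.0229. Deviations from means of only 3 arrays cannot decide whether the pools are paired. The mTORC1 genes higher in SE (1) became 4 without background correction, 3 with an offset of 50, 3 in the deposited scaled values, 2 over probes detected on all 6 arrays, 2 without moderation and 2 when a gene was counted if any of its tested probes passed, and those lower in SE became 5 without moderation. Other carriers higher in SE became 2 over probes detected on all 6 arrays, and those lower in SE 1 without moderation. Enzymes lower in SE became 2 without moderation. Under that last count 1 synthetase and 5 enzymes were higher in SE. With every tested transporter probe counted, an alternative chosen after seeing the data, 6 probes were higher and 6 lower in SE. With single arrays left out, the counts were 2 to 3 synthetases lower, 1 to 2 mTORC1 genes higher and 4 to 7 lower, 3 to 5 other carriers higher and 1 to 2 lower, and 1 to 3 enzymes higher in SE. The cause of these changes was not tested.

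Differences that changed sign had not passed the test. They were Slc6a19 in the deposited scaled values (0.016) and, under median centring, Slc7a13 (-0.0031), Slc38a1 (-0.0041), Slc38a8 (-0.056) and Slc43a1 (-0.0010). With single arrays left out, the differences ranged from -0.27 to 0.015 for Slc1a3, -0.060 to 0.29 for Slc1a5, -0.15 to 0.056 for Slc6a19, -0.13 to 0.14 for Slc7a13, -0.00037 to 0.12 for Slc38a1, -0.048 to 0.11 for Slc38a8 and -0.013 to 0.25 for Slc38a10. Transporters near the lowest detected signal, among them Slc7a8, Slc1a2 and Slc6a4, are limited by signal over background.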
